A study of Mus musculus with 4 samples.

Results

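The genes described here are 10 transcription factors that induce epithelial-mesenchymal transition (EMT): Zeb1, Zeb2, Snai1, Snai2, Twist1, Twist2, Prrx1, Foxc2, Sox4 and Tead2. They were taken by gene symbol, and each of the 10 had 1 probe set listed under its symbol, of 19938 genes with a probe set of their own on the array. Expression was measured in 4 clonal lines of a spontaneous mammary tumor from a female Tg/neu mouse, of the strain FVB/N Tg (MMTV/neu), in which the mammary-specific MMTV promoter drives the rat ErbB2 (neu) transgene. All 4 lines thus share the transgene and the tumor of origin. The mesenchymal-like lines M1 and M2 came from cells sorted for low CD24 and low neu and were grown in MEGM, a mammary epithelial medium with hydrocortisone, insulin, epidermal growth factor and pituitary extract. The epithelial lines E1 and E2 came from cells sorted for high CD24 and high neu and were grown in RPMI with a larger share of fetal bovine serum, and an effect of the medium cannot be told apart from one of the cell type. Each line is 1 clone with 1 array, and the labels name no repeat cultures, which leaves the p-values to reflect the spread from clone to clone. With so few arrays the precision of each value is limited.

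EMT is the process by which epithelial cells give up junctions and polarity and take on a motile, mesenchymal form. The zinc finger proteins of the Zeb and Snail families and the helix-loop-helix proteins of the Twist family are known to bind short E-box sequences in the promoters of genes such as Cdh1 (E-cadherin) and to repress them. Prrx1 is a homeobox factor, Foxc2 a forkhead factor and Sox4 an HMG-box factor that have each been tied to EMT in mammary or other carcinoma cells. Tead2 is a DNA-binding partner of Yap and Taz, the effectors of the Hippo pathway.

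The values are normalized log2 levels, in which a difference of 1 is a 2-fold ratio. The median level of the arrays was between 6.75 and 6.85. By limma, 7 of 11 epithelial markers were lower in M1 and M2 than in E1 and E2 and 0 higher. The shares of all probe sets were 2.02% lower and 1.72% higher. Cdh1, among the 7, was at 6.70 and 6.51 in M1 and M2, against 12.15 and 12.31 in E1 and E2. The other 4, Krt8, Krt18, Krt19 and Cldn4, were not called. Cldn4 was at 6.83 and 7.22 in M1 and M2, against 8.72 and 11.28 in E1 and E2. The keratins Krt8 and Krt18 were high in all 4 lines, at 13.12 or above, and Krt19 was low in all 4, between 6.33 and 6.48. Of 7 mesenchymal markers 3 were called higher in M1 and M2 and 0 lower, beside the same shares. Of the 3, Zeb1 and Twist1 are among the factors described here, and the other was Cdh2. Vim, Fn1, Sparc and Cdh11 were not called. Fn1 was at 13.36 and 13.27 in M1 and M2, against 13.57 and 12.74 in E1 and E2. Sparc was at 13.07 and 12.92 in M1 and M2, against 12.72 and 12.17 in E1 and E2. Cdh11 was low in all 4 lines, between 6.21 and 6.51. Of markers of other cell types, 0 of 8 fibroblast, 0 of 8 myoepithelial, 0 of 7 leukocyte, 0 of 6 endothelial and 0 of 5 adipocyte probe sets were called between the types by limma, with 1, 0, 0, 1 and 1 at an unadjusted p under 0.05. At that unadjusted p, 2096 of all 23410 probe sets were higher and 2107 lower. Ptprc, the leukocyte common antigen, was between 5.51 and 5.88 in every line, while the macrophage marker Cd68 was at 10.59 and 11.60 in M1 and M2, against 10.66 and 8.77 in E1 and E2. Single markers stood apart in a mesenchymal-like line, with Dcn, a fibroblast proteoglycan, at 10.08 and 5.74 in M1 and M2, against 5.49 and 5.62 in E1 and E2, and Fabp4, a fatty acid binding protein, at 7.20 and 10.77 in M1 and M2, against 5.26 and 5.50 in E1 and E2. At least 2-fold higher in the mean of M1 and M2 were 3 of the 8 fibroblast markers, Dcn, Pdgfrb and Pdgfra, and 0 were as far below. Over all 23410 probe sets tested, 1229 were at least 2-fold higher and 1049 at least 2-fold lower. Pdgfrb was at 9.51 and 5.92 in M1 and M2, against 5.86 and 6.03 in E1 and E2. Pdgfra was at 8.71 and 10.20 in M1 and M2, against 7.78 and 7.83 in E1 and E2. The endothelial marker Cdh5 was at 7.58 and 6.72 in M1 and M2, against 5.99 and 6.15 in E1 and E2. The part of these markers in the results was not tested.

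Of the 10 factors, 5 were higher in the mesenchymal-like lines by limma, namely Zeb1, Zeb2, Twist1, Twist2 and Prrx1, and 0 were lower (1, Sox4, at an unadjusted p under 0.05). Over all 23410 probe sets tested, 1.72% were called higher and 2.02% lower, and 2107 were lower at an unadjusted p under 0.05. Snai2 had a wide difference in the same direction but missed the threshold, as did Tead2 with a smaller one. Snai1 and Foxc2 were close to level, and Sox4 was the single factor with both mesenchymal-like lines below both epithelial lines. The median difference of the 10 factors was 2.51 on the log2 scale, against 0.00 over all probe sets. In 8 of the 10 both M lines lay above both E lines, which held for 24.2% of all probe sets, and in 1 of the 10 both lay below, which held for 23.8%. The calls depended on which lines were in the fit. With E1 or E2 left out, the limma fit called 0 probe sets in all (2579 without E1 and 2651 without E2 at an unadjusted p under 0.05) and so 0 of the 10 factors, 7 of which were at an unadjusted p under 0.05 in either case. Leaving out an M line had the opposite effect, with 1761 probe sets and 8 factors called without M1 and 1879 and 7 without M2, against 874 and 5 with all 4 lines. With values below the median of all values raised to it, 0 of the 10 were called by limma. At an unadjusted p under 0.05 were 7 of the 10, and 3008 of all 23410 probe sets. With the clone number as a block 1 of the 10 was called, Zeb1.

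**Figure D1:**
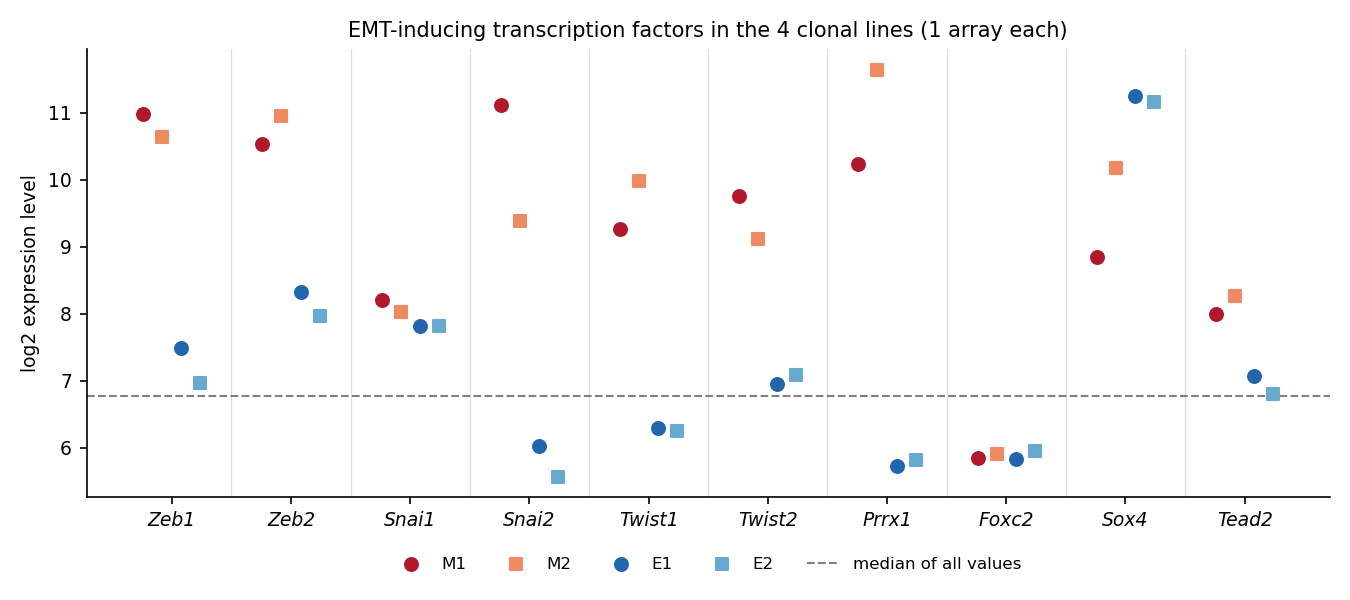
Points give the normalized log2 level of each factor in M1, M2, E1 and E2, with 1 array per line, and the dashed line is the median of all values, 6.78. Zeb1, Zeb2, Snai2, Twist1, Twist2 and Prrx1 separate the types by at least 2.03, and all points of Foxc2 lie below the median.

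Zeb1, a 2-handed zinc finger repressor of E-cadherin, had log2 levels of 10.99 and 10.64 in M1 and M2, against 7.49 and 6.96 in E1 and E2. The lines of each type lay close together, and the lower M line was 3.15 above the higher E line. The difference between the types was 3.59 (standard error 0.25, limma adjusted p = 0.0113), a 12.0-fold ratio of the listed values. Zeb2, its paralog, was at 10.54 and 10.95 in M1 and M2, against 8.32 and 7.96 in E1 and E2. Its gap between the types was smaller than that of Zeb1, both E lines were above the array median by more than 1, and the groups again did not overlap. It rose by 2.60 (standard error 0.22, limma adjusted p = 0.0174), or 6.07-fold.

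The array also carried probe sets for 4 members of the miR-200 family, small RNAs known to bind the Zeb1 and Zeb2 transcripts and to be repressed by both proteins in turn. These are shown because the seed, the stretch of the mature strand that pairs with the target, divides them into 2 groups. In the RefSeq sequences for GRCm38.p6, given 5′ to 3′, the capitals mark the seed, bases 2 to 8:
miR-141-3p (chr6:124717917-124717938, minus strand): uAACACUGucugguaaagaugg
miR-200a-3p (chr4:156054911-156054932, minus strand): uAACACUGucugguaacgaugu
miR-200b-3p (chr4:156055685-156055706, minus strand): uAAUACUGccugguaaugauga
miR-200c-3p (chr6:124718324-124718346, minus strand): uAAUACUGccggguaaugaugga

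The probe sets named for these genes were low in all lines, and how far they read the mature strand is not given in the sources used here. Mir200b was at 5.07 and 4.67 in M1 and M2, against 5.83 and 5.58 in E1 and E2, with both M lines below both E lines and a difference of -0.84 (standard error 0.19, limma adjusted p = 0.138). Mir200c, which shares the seed of Mir200b, was at 5.88 and 5.96 in M1 and M2, against 6.13 and 5.87 in E1 and E2, and the groups overlapped. Mir200a and Mir141, of the other seed, also overlapped between the types, with differences of -0.01 and -0.29. None of the 4 was called by limma, and at such low levels a difference in the primary transcripts may not have been detectable.

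Snai1, the founding Snail repressor, was at 8.21 and 8.02 in M1 and M2, against 7.82 and 7.81 in E1 and E2. The M lines were the higher ones, by 0.20 at the nearest point, but the difference of 0.30 did not pass (95% interval -0.04 to 0.64, limma adjusted p = 0.328). Its paralog Snai2 (Slug), which marks basal and stem-like mammary cells, was at 11.12 in M1 and 9.39 in M2, against 6.03 in E1 and 5.57 in E2. Every M line was thus at least 3.35 above every E line, with M1 well above M2. The difference of 4.45 was the second widest of the 10 and had the largest standard error, 0.64, and it missed the threshold narrowly (95% interval 2.65 to 6.25, limma adjusted p = 0.0574). It passed with quantile normalization (limma adjusted p = 0.0475) but not with each array centred on its median (limma adjusted p = 0.0643). Under the alternatives that kept all 4 lines, the limma adjusted p of Snai2 ran from 0.0409 to 0.345. Snai3, the third member of the family, went the other way, at 6.26 and 6.29 in M1 and M2, against 7.73 and 7.37 in E1 and E2. It fell by 1.28 (standard error 0.16, limma adjusted p = 0.0448).

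Twist1, a helix-loop-helix factor that drives mesoderm formation and EMT, was at 9.27 and 9.99 in M1 and M2, against 6.29 and 6.24 in E1 and E2. The E lines were nearly equal and below the array median, and the M lines were at least 2.98 above them. It rose by 3.36 (standard error 0.27, limma adjusted p = 0.0161), a 10.3-fold ratio of listed values. Twist2 was at 9.75 and 9.11 in M1 and M2, against 6.96 and 7.08 in E1 and E2. Here M1 was the higher M line, and the rise was 2.41 (standard error 0.25, limma adjusted p = 0.0284), or 5.32-fold. Twist proteins bind DNA as dimers with the E proteins Tcf3, Tcf4 and Tcf12, all 3 of which were expressed at 10.17 or above in every line. Tcf4, with the largest difference of these, was at 10.57 and 10.63 in M1 and M2, against 10.17 and 10.36 in E1 and E2, and was not called (limma adjusted p = 0.294). Id1, an inhibitor that takes E proteins out of such dimers, was at 10.52 and 10.24 in M1 and M2, against 9.31 and 9.23 in E1 and E2, and rose by 1.11 (standard error 0.14, limma adjusted p = 0.0448). Its relative Id2 was at 9.73 and 10.89 in M1 and M2, against 12.36 and 12.64 in E1 and E2, a difference of -2.19 that was not called (limma adjusted p = 0.104). Id3 was at 7.85 and 7.24 in M1 and M2, against 6.09 and 6.22 in E1 and E2, a difference of 1.39 that was not called either (limma adjusted p = 0.0834). Id4 was at 10.98 in M1 and 6.59 in M2, against 7.76 and 7.78 in E1 and E2, so that the M clones lay on either side of the E clones.

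Prrx1 had the widest difference of the 10 factors. M1 had a level of 10.24 and M2 of 11.64, against 5.73 for E1 and 5.82 for E2. The E lines were low and nearly equal, while the M lines were 1.41 apart and at least 4.42 above them. It rose by 5.17 (standard error 0.51, limma adjusted p = 0.0246), or 35.9-fold by the listed values. What an unexpressed gene reads on this array was not measured, so a ratio over a level below the array median, as for Prrx1, Twist1 and Snai2 in E1 and E2, is no estimate of the ratio of transcripts. Its paralog Prrx2 was at 6.81 and 6.70 in M1 and M2, against 6.56 and 6.76 in E1 and E2, with overlapping groups.

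Foxc2 was low and even, at 5.85 and 5.90 in M1 and M2, against 5.83 and 5.95 in E1 and E2. The groups overlapped, no neighbouring levels differed beyond the within-type spread of 0.11, and the interval of the difference ran from -0.32 to 0.30 (limma adjusted p = 0.981). As every value was below the array median, a difference in transcript at this level may not have been detectable. Foxc1, its close relative, was at 9.20 and 9.08 in M1 and M2, against 9.87 and 9.24 in E1 and E2, and was not called (limma adjusted p = 0.521).

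Sox4 was the factor with the reverse order, at 8.84 in M1 and 10.18 in M2, against 11.25 in E1 and 11.16 in E2. The E lines were level within 0.09, and M1 was the lowest line by 1.34. The difference of -1.69 did not pass (95% interval -3.05 to -0.33, limma adjusted p = 0.197). It passed when either M line was left out, at -1.02 without M1 (adjusted p = 0.0408) and -2.36 without M2 (adjusted p = 0.0066), with the lone M line taken to vary like the E lines. Sox11, of the same SoxC group as Sox4, was at 5.93 and 5.28 in M1 and M2, against 8.70 and 8.57 in E1 and E2, and fell by 3.03 (standard error 0.25, limma adjusted p = 0.0171). Sox12, the remaining SoxC gene, was at 6.19 and 6.68 in M1 and M2, against 8.51 and 6.96 in E1 and E2, and was not called (limma adjusted p = 0.381). Sox9, a regulator of mammary stem and luminal progenitor cells, was at 12.15 and 12.61 in M1 and M2, against 11.26 and 11.36 in E1 and E2, and missed the threshold (limma adjusted p = 0.0897).

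Tead2 was at 7.996 and 8.27 in M1 and M2, against 7.07 and 6.80 in E1 and E2. The groups were 0.92 apart, and the difference of 1.19 missed the threshold (95% interval 0.72 to 1.67, limma adjusted p = 0.0554), though it passed with each array centred on its median (adjusted p = 0.0497). Tead4 was at 11.13 and 11.03 in M1 and M2, against 9.48 and 9.91 in E1 and E2, also just outside the threshold (limma adjusted p = 0.0505). Tead1 was read by a pair of probe sets, which were lower in M by 0.47 and 0.49 and not called, and Tead3 was between 8.83 and 8.96 in all lines. The coactivators Yap1 and Wwtr1 (Taz) had differences of -0.12 and 0.39 and were not called (limma adjusted p = 0.729 and 0.747).

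**Figure D2:**
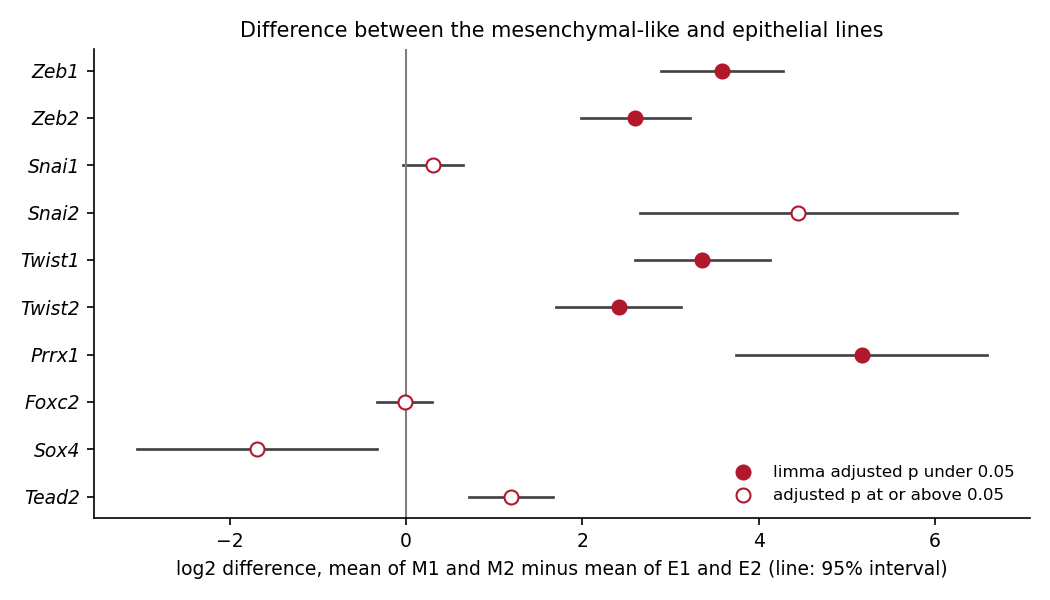
Points give the log2 difference of the mean of M1 and M2 from the mean of E1 and E2 for each factor, and lines its 95% interval from limma. Filled points are the 5 factors with an adjusted p under 0.05, from 2.41 in Twist2 to 5.17 in Prrx1, and the intervals of Snai1 and Foxc2 include 0.

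On the single arrays of M1 and M2, the transcript levels of some of these factors lay apart. Between M1 and M2, 3 of the 10 factors were at least 2-fold apart, against 5.86% of all probe sets, and between E2 and E1 none was, against 2.24%. M1 had the higher level of Snai2, by 1.73 or 3.32-fold, a gap matched or exceeded by 2.04% of probe sets. M1 had the lower level of Prrx1, by 1.41 or 2.65-fold, and of Sox4, by 1.34 or 2.53-fold, gaps matched or exceeded by 3.14% and 3.48% of probe sets. The pairs of Zeb and of Twist paralogs ran in opposite orders between the M clones. Zeb1 differed by 0.35 (M1 minus M2) and Zeb2 by -0.42, and Twist2 by 0.64 and Twist1 by -0.71. The median gap of all probe sets between M1 and M2 was 0.18 and the 95th percentile 1.10, so the gaps of Zeb1, Zeb2, Twist1 and Twist2 are within the range common to these arrays. Each sets 1 array against 1 array and has no test.

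The gap between the epithelial clones was the smaller one for all factors but Zeb1, Foxc2 and Tead2. E2 was below E1 by 0.53 in Zeb1, 0.46 in Snai2, 0.36 in Zeb2 and 0.28 in Tead2, and the other 6 factors were within 0.13. A gap as large as that of Zeb1 occurred in 7.04% of probe sets between E2 and E1. For Snai1, Snai2, Twist1, Twist2, Prrx1 and Sox4 the levels of E1 and E2 did not differ beyond the within-type spread of the fit. That spread is moderated by limma, from the M and E gaps of the same factor and the variances of all probe sets tested. The wider gap of every factor exceeded it. As both gaps enter it, it gives no test of which type varied more.

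**Figure D3:**
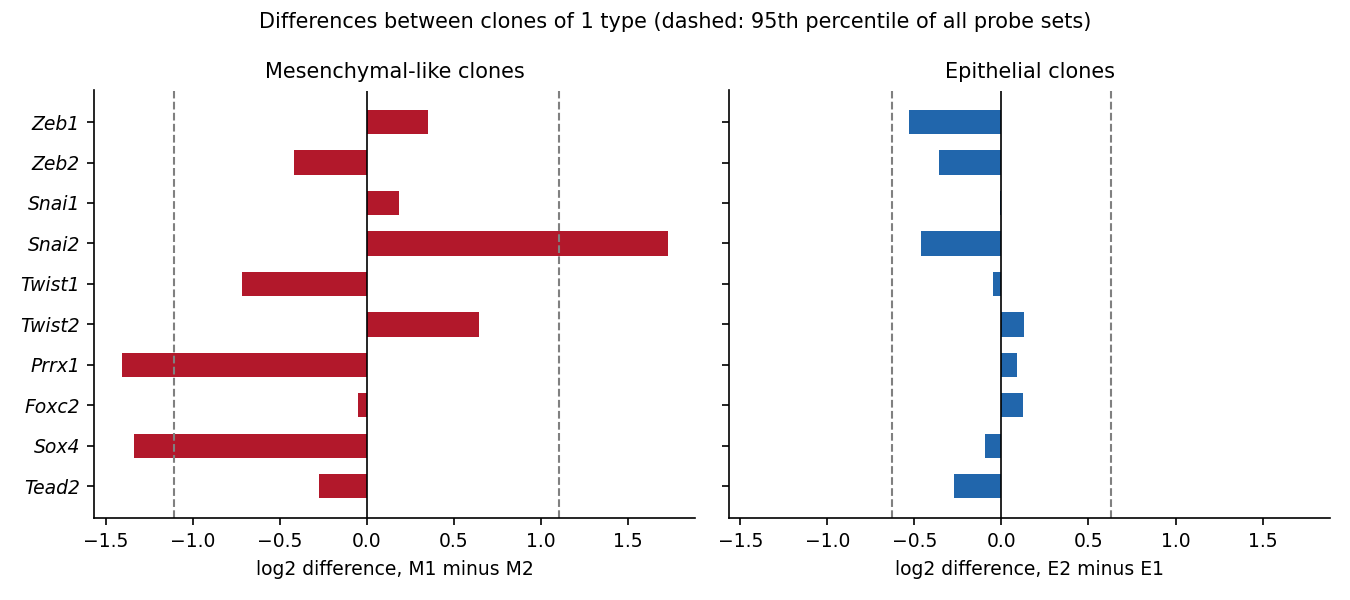
Bars give the log2 difference of each factor between clones of the same type, M1 minus M2 on the left and E2 minus E1 on the right, from 1 array per clone. Dashed lines mark the 95th percentile of the absolute difference over all probe sets, 1.10 and 0.63, which Snai2, Prrx1 and Sox4 pass between M1 and M2 and no factor passes between E2 and E1.

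Genes known to be repressed by the Zeb, Snail or Twist proteins were lower in the mesenchymal-like lines as a group. The list holds epithelial genes and was chosen with earlier results of these data known. Its fall between lines sorted and labelled by type is thus a description and no independent result. Of 28 measured, 17 were called lower and 0 higher by limma (22 and 0 at an unadjusted p under 0.05), where 2.02% of all probe sets were called lower and 1.72% higher. At an unadjusted p under 0.05, 2107 of all 23410 probe sets were lower and 2096 higher. The median difference of the list was -2.58, against 0.00 over all probe sets. The largest falls were in the adhesion protein Epcam, at 5.77 and 5.46 in M1 and M2, against 12.70 and 12.76 in E1 and E2, and in Mal2, an apical trafficking protein, at 5.43 and 5.15 in M1 and M2, against 12.10 and 11.62 in E1 and E2. The splicing regulator Esrp1 fell by 6.06 (standard error 0.16) and the recycling endosome protein Rab25 by 5.92 (standard error 0.12), each with a limma adjusted p = 0.0025. Cdh1, the target by which these repressors are best known, fell by 5.63 (standard error 0.14, limma adjusted p = 0.0025). Krt8, Krt18 and Muc1, also on the list, were not called, with differences of 0.13, -0.28 and -0.21.

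The sequences that these repressors are known to bind can be read in the promoters. The motif searched was the E-box CACCTG, which is CAGGTG on the opposite strand, so that both spellings are 1 motif and do not overlap, in RefSeq windows from 250 bases before to 50 bases after each gene's start (GRCm38.p6). Windows were at hand for 15 listed targets, of which 14 held at least 1 match. Among the 17 targets called lower, 10 had a window, and all 10 held a match. Cdh1, Mal2, Esrp1, Grhl2, Llgl2, Pkp3 and St14 were called lower but had no window and were not examined. Krt8, Krt18, Muc1 and Cldn4, which were not called, also held a match. Over all 27025 genes with a window, 22.6% held a match in at least 1 of their windows. The list was drawn up from genes known as targets of E-box repressors, so this share is a description of the list and no independent result. Of the factors themselves, 7 had a window and 1, Snai1, held a match. The windows of 4 targets that fell are shown, chosen after their matches were counted, as Ap1m2 and Crb3 hold the most matches of the list and Epcam and Rab25 are among the genes with the largest falls. They are given 5′ to 3′ on the strand of the gene, with the E-boxes in capitals:
Epcam (chr17:87635729-87636028, plus strand): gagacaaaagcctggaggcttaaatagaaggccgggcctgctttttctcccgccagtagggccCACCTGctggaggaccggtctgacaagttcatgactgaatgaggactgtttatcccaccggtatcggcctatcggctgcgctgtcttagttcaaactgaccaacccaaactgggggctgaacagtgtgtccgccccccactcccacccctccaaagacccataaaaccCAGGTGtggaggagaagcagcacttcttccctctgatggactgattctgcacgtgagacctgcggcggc
Rab25 (chr3:88548230-88548529, minus strand): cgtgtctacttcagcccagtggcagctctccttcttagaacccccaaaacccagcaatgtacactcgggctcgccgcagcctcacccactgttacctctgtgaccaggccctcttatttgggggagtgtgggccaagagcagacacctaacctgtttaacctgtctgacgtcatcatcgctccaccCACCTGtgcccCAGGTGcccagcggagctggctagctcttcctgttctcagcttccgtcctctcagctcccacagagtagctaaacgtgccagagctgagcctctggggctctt
Ap1m2 (chr9:21312284-21312583, minus strand): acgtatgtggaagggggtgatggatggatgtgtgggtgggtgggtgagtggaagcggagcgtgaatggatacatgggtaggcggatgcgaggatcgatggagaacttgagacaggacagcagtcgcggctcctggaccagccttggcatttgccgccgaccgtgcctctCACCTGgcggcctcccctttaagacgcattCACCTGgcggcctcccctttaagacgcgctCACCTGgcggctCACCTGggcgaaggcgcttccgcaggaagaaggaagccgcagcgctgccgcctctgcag
Crb3 (chr17:57061951-57062250, plus strand): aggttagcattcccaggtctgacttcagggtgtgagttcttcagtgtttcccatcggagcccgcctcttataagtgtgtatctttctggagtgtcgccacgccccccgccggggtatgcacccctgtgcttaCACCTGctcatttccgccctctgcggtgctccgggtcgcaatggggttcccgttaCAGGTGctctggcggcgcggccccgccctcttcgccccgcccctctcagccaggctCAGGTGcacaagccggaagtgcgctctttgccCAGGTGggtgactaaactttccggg

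Ap1m2 encodes an adaptor subunit of polarized sorting, and its 4 E-boxes began at positions -81, -51, -21 and -9, counted from the start. It was at 5.45 and 6.34 in M1 and M2, against 10.39 and 10.70 in E1 and E2, a fall of 4.65 (standard error 0.35, limma adjusted p = 0.0133). Crb3, a polarity protein of the apical membrane, had 3 E-boxes before the start and 1 after it, and fell by 2.20 to 6.95 and 6.91 in M1 and M2, against 9.27 and 8.98 in E1 and E2 (limma adjusted p = 0.0103). The E-boxes of Rab25 began at -64 and -53, and those of Epcam at -187 and -19. A match is a description of the letters and does not show that a factor was bound.

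Genes linked to the mesenchymal state went in both directions. Of 20 measured, 3 were called higher and 1 lower, where 1.72% and 2.02% of all probe sets were, and the median difference was 0.06. The fibronectin receptor subunit Itga5 was at 10.71 and 11.76 in M1 and M2, against 5.68 and 5.86 in E1 and E2 (limma adjusted p = 0.0123), N-cadherin (Cdh2) rose by 5.10 (limma adjusted p = 0.0451), and S100a4, a calcium-binding protein of motile cells, rose by 3.52 (limma adjusted p = 0.0029). The matrix glycoprotein tenascin C (Tnc) went the other way, at 5.40 and 5.75 in M1 and M2, against 11.89 and 11.01 in E1 and E2 (limma adjusted p = 0.0081). Vimentin (Vim) was high in every line, at 13.72 and 13.82 in M1 and M2, against 12.79 and 13.10 in E1 and E2, and missed the threshold (limma adjusted p = 0.0896).

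Of 22 Yap-Tead target genes measured, 2 were called higher and 1 lower, with a median of 0.06. Over all 23410 probe sets tested, 1.72% were called higher and 2.02% lower by limma. At an unadjusted p under 0.05, 2096 were higher and 2107 lower. These are also the background for the other lists of this paragraph. The receptor kinase Axl rose by 6.30 to 12.67 and 12.58 in M1 and M2, against 6.31 and 6.35 in E1 and E2 (limma adjusted p = 0.0025), and the Arf regulator Asap1 rose by 1.34 (limma adjusted p = 0.0209). Tissue factor (F3) fell by 2.09 (limma adjusted p = 0.0055). Ccn1 and Ccn2, matricellular targets often used to read Yap activity, had differences of -0.10 and -0.13 and were not called. For Ccn1 the M clones lay on either side of the E clones, at 11.88 in M1 and 10.39 in M2, against 11.19 and 11.26 in E1 and E2. Ankrd1, also on the list, was at 8.52 and 11.23 in M1 and M2, against 5.62 and 5.96 in E1 and E2. It was not called (limma adjusted p = 0.144). Both M lines lay above both E lines in 6 of the 22 and below them in 6, where 24.2% and 23.8% of all probe sets did. Of 29 probe sets for cofactors of these proteins and enzymes of their turnover, 0 were called by limma (0 higher and 5 lower at an unadjusted p under 0.05), with a median of -0.17 (among them the Zeb corepressors Ctbp1 and Ctbp2, at 0.01 and -0.70). The 20 genes of upstream signals had 1 called lower and 0 higher (6 lower and 1 higher at an unadjusted p under 0.05), with a median of -0.15. The called gene was the growth arrest protein Gas1, at -2.07 (limma adjusted p = 0.0355). Of 33 probe sets for other EMT-associated regulators and paralogs, 1 was called higher and 2 lower, which are Id1, Sox11 and Snai3 above, with a median of 0.07.

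**Figure D4:**
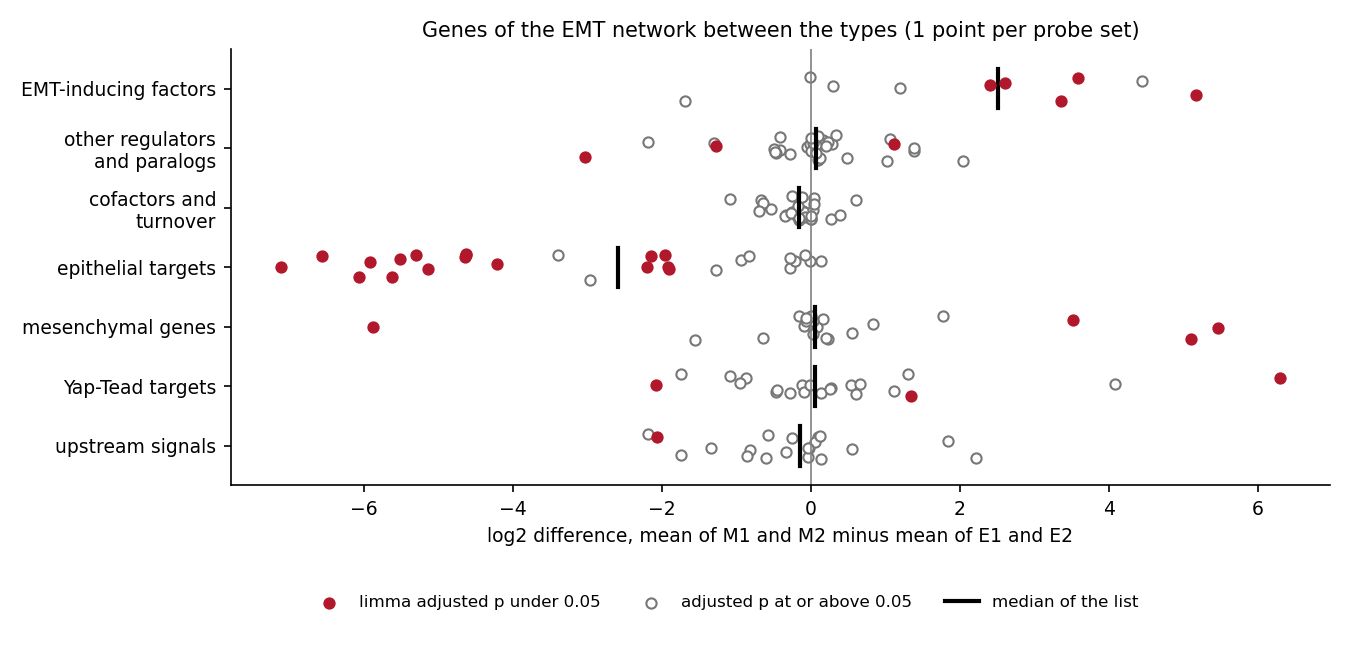
Each point is a probe set, placed by its log2 difference of the mean of M1 and M2 from the mean of E1 and E2, for the factors and 6 lists of related genes, and black bars are list medians. Filled points have a limma adjusted p under 0.05, as 17 epithelial targets and 5 factors do, and the medians of the other 5 lists lie between -0.17 and 0.07.

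For each factor that was called, the genes with the most similar profile were sought by the root mean square difference of log2 levels over the 4 lines, after each gene was centred on its own mean. The nearest to Zeb1 were Zfp9, Naip5 and Klf4, at 0.08, 0.16 and 0.16. Klf4, a zinc finger factor, was at 10.13 and 10.05 in M1 and M2, against 6.74 and 6.53 in E1 and E2. The nearest to Zeb2 were Nr2f1, Eno3 and Gdf11, at 0.08, 0.10 and 0.14, of which the nuclear receptor Nr2f1 was at 9.61 and 10.19 in M1 and M2, against 7.44 and 7.24 in E1 and E2. Twist1 was followed most closely by Tmem74, Fam20c and Ttll7, at 0.04, 0.04 and 0.06, and Twist2 by Wnt10a, Usp17la and Chrd, at 0.08, 0.10 and 0.11. The ligand Wnt10a, at 10.58 and 9.90 in M1 and M2, against 7.96 and 7.91 in E1 and E2, shared with Twist2 the higher level in M1. Prrx1 was nearest to Man1a, at 0.09, then to Itga5 and to Pcolce, an enhancer of procollagen processing, at 0.20 and 0.21, all of which were higher in M2 than in M1. With 4 lines of 2 types, such likeness rests mainly on the step between the types and is given as a description. As the genes were picked for this likeness, an order of M1 and M2 shared with the factor follows from the choice.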

How the data were processed

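RNA of M1, M2, E1 and E2 was hybridized to Affymetrix MoGene 1.0 ST arrays, 1 per line. The authors exported the array files from the scanner software, and their processing notes name Partek. Background correction, normalization and summarization are not given in the sources used here. For RNA preparation the methods give a spin-column kit, the labels Trizol. The deposited values are log2 levels normalized by the authors, from 2.28 to 14.5, and were used without further scaling. Gene symbols came from the platform annotation, and the 23410 of 35556 probe sets with a symbol were tested. Sequences are from RefSeq tables of GRCm38.p6, with promoter windows matched by symbol for 7 of the 10 factors and 15 of the epithelial targets.

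The lines of type M (M1, M2) were set against those of type E (E1, E2) in limma 3.58.1 under R 4.3.3 (lmFit and eBayes, 2 residual degrees of freedom), with Benjamini-Hochberg adjustment over all probe sets tested and a threshold of 0.05. The difference is M minus E. Comparisons between clones of a type carry no test. The fit was checked on simulated data. Lists count genes with a probe set of their own, and 2 older symbols in the Yap-Tead list name genes already in it. The genes named are the factors, their paralogs and partners, up to 4 called genes per direction and list, and the 3 nearest profiles of each called factor. The miR-200 genes, Ap1m2, Crb3, Krt8, Krt18, Krt19, Cldn4, Fn1, Sparc, Cdh11, Muc1, Id2, Id3, Id4, Ccn1, Ccn2, Ankrd1, Ctbp1, Ctbp2 and the markers of other cell types were named after their values were seen. The members and lists were chosen with earlier results of these data known. The alternatives were other normalizations, brighter probe sets only, low values raised to the median, all probe sets tested, other variance moderation, the clone number as a block and leaving out each line.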

Additional observations from a re-analysis of the deposited data

How the results depend on the processing

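Every factor but Foxc2 kept its direction under the 12 alternatives. The number of calls did not hold. With values raised to the median of all values, 223 probe sets and 0 factors were called, and with the clone number as a replicate block 319 and 1 (Zeb1), against 874 and 5. The cause was not tested for the raised values, and the block leaves fewer residual degrees of freedom. The clone numbers did not pair the lines (r = -0.037 across probe sets between M1 minus M2 and E1 minus E2). Leaving out 1 line gave from 0 (without E1 or without E2) to 1879 probe sets (without M2; 1761 without M1) and from 0 to 8 factors. Without M1 the added calls were Snai2, Sox4 and Tead2, and without M2 they were Snai2 and Sox4. The adjusted p of the 5 called factors ranged over the alternatives from 0.0075 to 0.133 for Zeb1, 0.0106 to 0.159 for Zeb2, 0.0033 to 0.187 for Twist1, 0.0053 to 0.218 for Twist2 and 0.0028 to 0.242 for Prrx1, and that of Snai2 from 0.0040 to 0.345. The difference of Foxc2 between the types, -0.01, had values from -0.0731 to 0.0478 when a line was left out, with the sign turned without M1 (0.0124) and without E2 (0.0478). With low values raised its 4 lines were equal, and it was not among the brighter probe sets. The other EMT-associated regulators called higher were 2 with quantile normalization and 3 among the brighter probe sets, against 1. Of the 60 values between clones under other scalings or the raised floor, 59 moved by less than the within-type spread. The unknown background of the array limits every value below its median.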
